A study of Homo sapiens with 8 samples.

Results

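Genes of growth factor and collagen receptor tyrosine kinases were followed across 4 genotypes of U2OS cells, an established human osteosarcoma line. They were taken by symbol: PDGFRA, PDGFRB, EGFR, ERBB2, MET, AXL, FGFR1, INSR, DDR1 and DDR2, which are 10 of the 19414 genes in the deposited tables. RNA-seq of total RNA gave 8 libraries, 2 in each group. The Zab+MYC cells carried Zab and overexpressed MYC (O/E), the MYC cells overexpressed MYC alone, the Zab cells carried Zab alone, and the WT cells carried neither. Zab is short for Zαβ, in general use the 2 related domains Zα and Zβ of the enzyme ADAR1, of which Zα binds left-handed DNA or RNA. The construct, its promoter, the number of clones and the time of expression are not given in the sources used here. The labels do not state whether paired libraries are separate cultures, so the p-values rest on a spread that may be technical. The common dispersion fitted by edgeR, a measure of the spread between paired libraries beyond counting error, was only 0.00019. This value rests on taking a tag as 2 steps of the deposited signal, an assumption described with the processing. Whether the pairs are technical repeats was not tested.

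Receptor tyrosine kinases span the plasma membrane. A ligand outside pairs or rearranges the receptors, their kinase domains phosphorylate each other, and adaptor proteins that bind the phosphotyrosines pass the signal to the RAS-MAPK, PI3K and STAT pathways. Mesenchymal cells such as osteoblasts and osteosarcoma cells use PDGF, FGF and insulin-family receptors for growth, AXL and MET for survival and movement, and the discoidin domain receptors to sense collagen.

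The start-site regions of 4 receptors with unlike patterns of level are shown as sequence context. They were chosen with their levels known, so no motif in them bears on why a level differed. RefSeq promoters (GRCh38.p14), each from 250 bases before to 50 bases after the gene's start, were found for 9 of the 10 genes, all but FGFR1. The MET region is chr7:116671946-116672245 on the plus strand, AXL is chr19:41218973-41219272 on the plus strand, PDGFRB is chr5:150155796-150156095 on the minus strand, and DDR1 is chr6:30880720-30881019 on the plus strand. Each runs 5′ to 3′ in the direction of the gene, and capitals mark the E-box that MYC binds (CACGTG) and the GC box on either strand (GGGCGG when read on its own strand).
MET: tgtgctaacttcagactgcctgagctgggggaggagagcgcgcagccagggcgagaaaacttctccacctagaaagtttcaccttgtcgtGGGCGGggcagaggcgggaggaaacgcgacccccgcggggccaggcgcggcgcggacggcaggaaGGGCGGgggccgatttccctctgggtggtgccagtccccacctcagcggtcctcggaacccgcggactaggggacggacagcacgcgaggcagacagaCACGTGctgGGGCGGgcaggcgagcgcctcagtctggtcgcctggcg
AXL: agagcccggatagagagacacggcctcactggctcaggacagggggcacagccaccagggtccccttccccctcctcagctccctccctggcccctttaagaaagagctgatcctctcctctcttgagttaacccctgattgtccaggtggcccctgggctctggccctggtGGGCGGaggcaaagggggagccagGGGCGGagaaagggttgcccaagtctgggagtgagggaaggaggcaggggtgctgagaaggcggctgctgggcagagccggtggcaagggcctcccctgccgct
PDGFRB: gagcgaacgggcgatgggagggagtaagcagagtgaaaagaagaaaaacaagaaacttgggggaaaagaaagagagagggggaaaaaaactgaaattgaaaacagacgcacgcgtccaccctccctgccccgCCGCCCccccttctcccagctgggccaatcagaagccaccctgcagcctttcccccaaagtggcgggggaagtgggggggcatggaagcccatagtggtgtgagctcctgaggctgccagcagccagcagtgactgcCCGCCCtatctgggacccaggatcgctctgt
DDR1: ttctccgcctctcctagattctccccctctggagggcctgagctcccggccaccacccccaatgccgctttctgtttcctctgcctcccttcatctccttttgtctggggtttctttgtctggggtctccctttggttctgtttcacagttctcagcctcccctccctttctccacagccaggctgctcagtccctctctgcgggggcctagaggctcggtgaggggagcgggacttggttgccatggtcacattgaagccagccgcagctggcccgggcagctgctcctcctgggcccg
Both strands were searched. Besides the E-box and the GC box, the search took in the alternating repeats CGCGCG and, as the other kind, TGTGTGTG, which are types of sequence that can take up the Z form of DNA. Hits of different motifs can share an end base. Of the 9 promoters, only that of MET held CACGTG, with its first base at position 4 after the start, counted from 1, which is 1 of 9 against the 10.8% of tested genes below. The share of promoters with CACGTG was 7.43% of all 27305 genes with a RefSeq promoter and 10.8% of the 7889 among them that were tested for expression. GGGCGG was found in MET 3 times, EGFR 3 times, AXL 2 times, PDGFRB 2 times and INSR 4 times, where hits overlap. It was in 44.6% of all promoters and 72.8% of those of tested genes. CGCGCG was found in EGFR once and in INSR 2 times, and it was in 16.2% of all promoters and 29.8% of those of tested genes. TGTGTGTG was in 3.08% and 1.88% of the same promoters and was not in these windows. DDR1, ERBB2, PDGFRA and DDR2 held none of the 4 motifs in the windows searched, 1 per gene. The transcripts kept for these 4 genes and EGFR have 2 or 3 different start positions, and only 1 window per gene was searched. The windows were taken by symbol and were not matched to the starts of the counted transcripts, which are on build hg19. A window may therefore lie at a start that was not counted. The GC content of the 9 promoters ran between 41% for DDR2 and 78.3% for INSR, with a median of 66% over tested genes. A match is a run of letters and not a measured binding site.

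MYC transcript was raised where the labels name MYC, and ADAR transcript was above WT where they name Zab, each to unequal levels. MYC was also above its WT level in Zab cells. ADAR is not named in the labels, and its level is taken here as a reading of Zab. ADAR tags cannot tell a Zab transcript from the cells' own ADAR. MYC stood at 706 ± 1.27 CPM (tags scaled to a common library size with TMM factors, mean ± SD, n = 2) in Zab+MYC, 1263 ± 37.1 in MYC, 212 ± 25.1 in Zab and 83.7 ± 15.8 in WT. ADAR averaged 1043 ± 34.7 CPM in Zab+MYC, 239 ± 11.8 in MYC, 6100 ± 138 in Zab and 267 ± 3.75 in WT. Zab+MYC cells thus had less MYC transcript than MYC cells and less ADAR transcript than Zab cells, and in every comparison below that involves Zab+MYC the presence of a factor and its dose cannot be told apart. In Zab against WT, Zab and the higher MYC transcript cannot be told apart either. Exon tags per library ran from 686992 to 1326166, and 60.6% to 76.1% of all tags lay in exons of coding genes, highest in MYC and lowest in Zab. Of 7 mesenchymal and bone markers, VIM, SPARC and COL1A1 were abundant, RUNX2, ALPL and SPP1 were low, and COL1A2 gave 1 tag over the 8 libraries. Their summed level, without TMM scaling, was 7550 to 7684 CPM in Zab+MYC, 5077 to 5194 in MYC, 8606 to 9023 in Zab and 10480 to 10780 in WT, so it was lowest in MYC, as the receptor sum below was. Of 8 markers of other cell types (EPCAM, CDH1, PTPRC, CD68, PECAM1, CDH5, SOX10, MAP2), 7 were above 0 in Zab+MYC, 4 in MYC, 5 in Zab and 6 in WT. Their summed level on the same scale was 13.02 to 16.9 CPM in Zab+MYC, 10.2 to 11.2 in MYC, 13.04 to 16.7 in Zab and 20.3 to 23.8 in WT. CDH1 and CDH5 gave 1 tag each and PTPRC 2 tags over the 8 libraries. The part of these differences in the results below was not tested. In bulk RNA fewer expressing cells and less RNA per cell cannot be told apart.

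The make-up of the receptor set differed between the genotypes, and its summed level was lowest in MYC cells. Per kilobase of the transcript kept in each library, the 10 receptors summed to 69.5 ± 3.61 CPM per kb in Zab+MYC, 52.35 ± 4.33 in MYC, 92.6 ± 3.08 in Zab and 90.35 ± 4.50 in WT. The Zab and WT libraries overlapped in this sum, and both MYC libraries lay below all others. FGFR1 held 25.95% ± 0.468 of the summed per-kb level in Zab+MYC, 40.5% ± 2.15 in MYC, 23.6% ± 0.881 in Zab and 36.2% ± 0.34 in WT. AXL held 30.5% ± 1.01 in Zab+MYC, 16.0% ± 0.774 in MYC, 41.4% ± 3.13 in Zab and 20.75% ± 1.99 in WT. MET held 22.8% ± 1.13 in Zab+MYC, 28.8% ± 2.23 in MYC, 10.6% ± 0.969 in Zab and 10.8% ± 1.003 in WT. AXL was therefore the leading receptor transcript per kb in both Zab libraries and both Zab+MYC libraries, and FGFR1 in both MYC and both WT libraries. The smallest shares in WT were those of INSR, 0.858% ± 0.232, DDR2, 1.56% ± 0.234, and PDGFRA, 2.01% ± 0.0634.

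**Figure D1:**
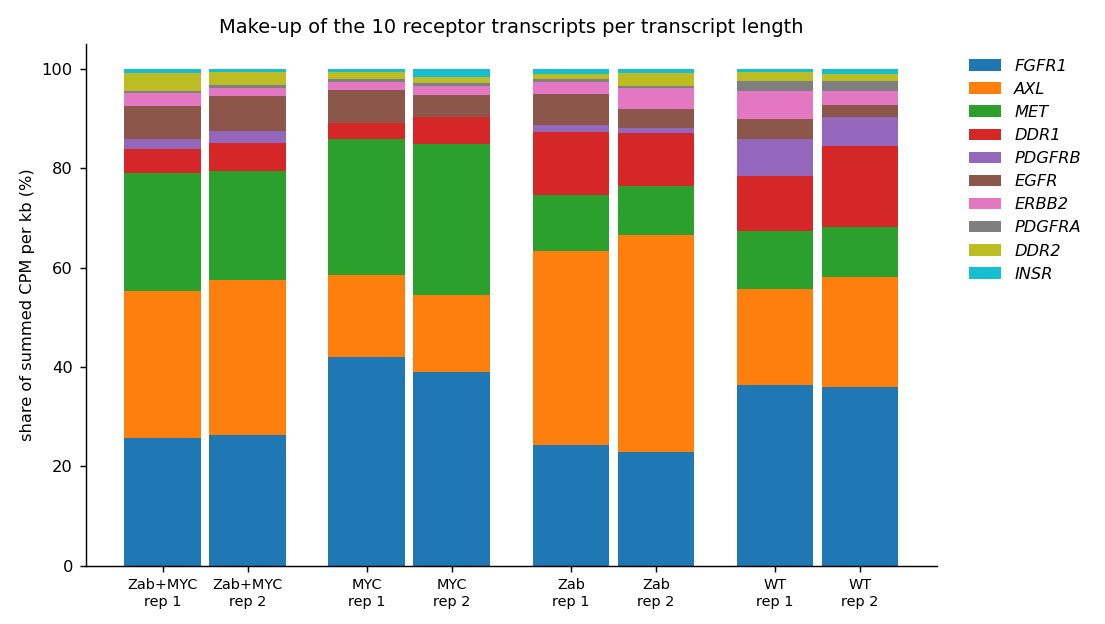
Share of the summed receptor level per transcript length (y axis, percent of the summed CPM per kb of the 10 receptors) in each library (x axis). Each stacked bar is 1 library, with the colours for genes given in the legend. The AXL block makes up 41.4% on average in Zab and 16.0% in MYC, and the MET block 22.8% in Zab+MYC and 10.8% in WT.

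Tests covered 9 of the 10 receptors. The filter on low values, which kept 9673 genes, asked for 11.66 CPM, before TMM scaling, in at least 2 libraries. INSR did not reach it in any library, and PDGFRA and PDGFRB reached it only in the WT libraries. ERBB2 reached it in both WT libraries and Zab replicate 2. PDGFRA, PDGFRB and ERBB2 thus had to be high in WT to be tested. Counts of receptors called, medians over the receptors and tests of these genes that involve WT are therefore given as a description. Fold changes are on the scale log2(CPM + 2), which understates the change of low genes, with limma's SE and the adjusted p over all 9673 genes, called under 0.05. With 2 libraries against 2, an exact permutation test of a single gene cannot go below p = 0.333, so each call rests on limma's spread pooled over genes.

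In MYC cells against WT cells, 1 receptor was called higher (MET) and 7 lower (PDGFRB, PDGFRA, FGFR1, ERBB2, AXL, DDR1 and DDR2), and EGFR was not called. Of all genes tested, 27.8% were called higher and 30.4% lower. The median log2 fold change was -1.12 over the 9 receptors and -0.04 over all genes. In Zab cells against WT cells, 2 receptors were called higher (AXL and EGFR) and 3 lower (PDGFRB, PDGFRA and FGFR1), against 13.1% of genes higher and 11.3% lower, with medians of -0.20 over the receptors and 0.00 over all genes. In Zab+MYC cells against MYC cells, 4 receptors were called higher (PDGFRB, DDR2, AXL and EGFR) and 0 lower, against 11.8% and 8.14% of genes. The median was 0.55 over the receptors and 0.00 over all genes. No receptor was lower there at an unadjusted p under 0.05 with limma, or at an adjusted p under 0.05 with edgeR or DESeq2, a count of 0 with each. DESeq2 gave no adjusted p for 5 of the 9 (PDGFRA, PDGFRB, ERBB2, DDR1 and DDR2). In Zab+MYC cells against Zab cells, 1 receptor was called higher (MET) and 2 lower (AXL and DDR1), against 14.3% and 12.5% of genes, with medians of -0.19 and -0.01. For the difference between the MYC effect with Zab and the MYC effect without Zab, 1 receptor was called higher (PDGFRB) and 0 lower, against 14.6% and 13.3% of genes. The medians were 0.75 over the receptors and 0.02 over all genes. The count lower was also 0 at an unadjusted p under 0.05, with edgeR and with DESeq2, which gave no adjusted p for PDGFRA, PDGFRB and ERBB2. The 2 comparisons with WT share the WT libraries, and the 2 comparisons of Zab+MYC share the Zab+MYC libraries. The MYC libraries stand first in MYC against WT and second in Zab+MYC against MYC, and the Zab libraries likewise, so a chance deviation of these libraries moves both values in opposite directions.

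**Figure D2:**
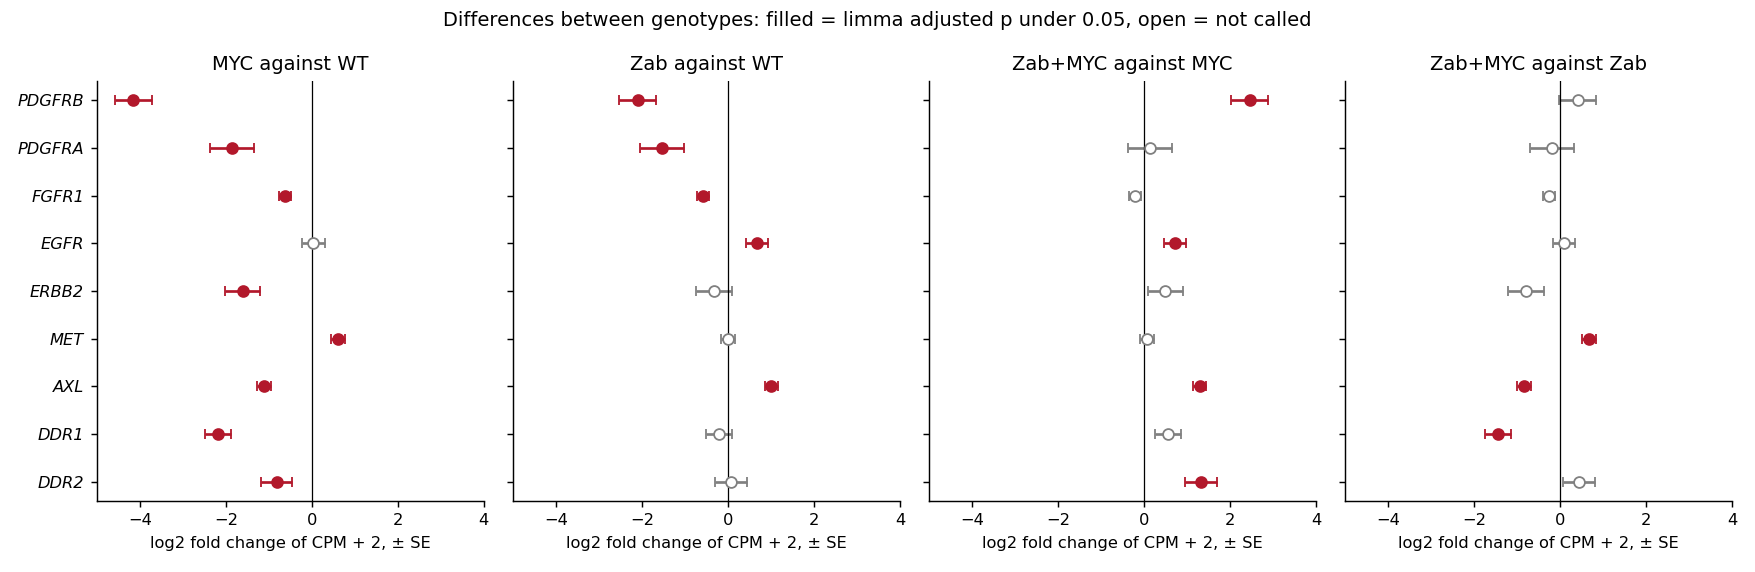
Log2 fold change of CPM + 2 (x axis, with SE bars) of the 9 tested receptors (y axis) in 4 comparisons of genotypes. Filled points passed limma's adjusted p of 0.05 and open points did not. AXL lies at -1.12 in MYC against WT and at 1.01 in Zab against WT, and MET is the 1 receptor right of 0 with a filled point in MYC against WT.

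The scale matters for the Zab comparisons. The deposited values carry 1 factor per library whose origin is not given, although folder names in the file headers mention a spike-in, and on that scale the median log2 fold change of all genes shifts to -0.51 for Zab over WT cells, -0.31 for Zab+MYC over MYC cells, 0.14 for Zab+MYC over Zab cells and 0.22 for the difference of the MYC effects. Plain library totals shift the median to -0.16 in MYC against WT and 0.11 for the difference of the MYC effects. The share of called genes that were higher was 53.8% in Zab against WT and 5% on the deposited scale. It was 59.3% in Zab+MYC against MYC, 16.3% on the deposited scale and 70.1% with library totals. It was 53.4% in Zab+MYC against Zab and 73.4% on the deposited scale, and 52.2% and 71.3% for the difference of the MYC effects. All directions below are relative to TMM scaling.

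PDGFRB showed the widest swing. It encodes the beta receptor for platelet-derived growth factor, which drives growth of mesenchymal and perivascular cells, and lies on chromosome 5 from 149493402 to 149535408 on the minus strand (hg19). PDGFRB measured 8.76 and 9.21 CPM in the Zab+MYC libraries, 0 and 0 in the MYC libraries, 7.17 and 5.51 in Zab, against 37.2 and 30.2 in WT. No tag was counted in either MYC library, against 58 tags over both WT libraries, and no groups overlapped, in the order WT, Zab+MYC, Zab, MYC. With the MYC group set at a floor of 3 tags over the group (1.29 CPM), PDGFRB was 26.0-fold lower in MYC cells than in WT cells. On the same floor it was 6.95-fold higher in Zab+MYC cells than in MYC cells. These ratios leave out the counting error of the WT and Zab+MYC tags, so they are not lower limits. The fitted fold change of a gene at 0 depends on the pseudocount and is no bound either. Only the calls are given for these comparisons, with limma adjusted p = 2.8e-13 for MYC against WT and 1e-05 for Zab+MYC against MYC. In Zab cells PDGFRB fell 5.32-fold against WT cells by its tags, 9.5 against 58 (95% counting interval 2.56 to 11.1, with tags rounded to whole numbers and counting error only). The fitted value was log2 -2.10 ± 0.435 (limma adjusted p = 0.00011). Zab+MYC and Zab cells differed by log2 0.40, with a 95% interval of -0.462 to 1.27 (limma adjusted p = 0.53). Lower PDGFRB was thus called in MYC cells without Zab, and not in the comparison of MYC cells that had Zab. The difference between these MYC effects passed the test, at log2 4.56 ± 0.615 (limma adjusted p = 7.7e-09), a size that also depends on the pseudocount. PDGFRB reached the filter only in the WT libraries, so its p-values for this difference and against WT are a description.

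PDGFRA, the alpha receptor for the same growth factors, was near the counting floor in every group but WT. Its locus is chromosome 4 from 55095460 to 55164414 on the plus strand. PDGFRA measured 1.46 and 2.835 CPM in Zab+MYC, 1.87 and 1.59 in MYC, 2.87 and 2.45 in Zab, against 11.4 and 11.65 in WT. All 6 libraries with MYC or Zab lay far below both WT libraries. Zab+MYC libraries overlapped those of MYC and of Zab, while both Zab libraries lay above both MYC libraries. There were 3.5 tags over both Zab+MYC libraries, 4 over both MYC, 4 over both Zab and 20 over both WT. By tags PDGFRA was 6.71-fold lower in MYC cells than in WT cells (95% counting interval 2.25 to 27.0) and 4.36-fold lower in Zab cells than in WT cells (1.46 to 17.5). The fitted falls were log2 -1.86 ± 0.509 (limma adjusted p = 0.0013) and -1.54 ± 0.509 (limma adjusted p = 0.019). PDGFRA reached the filter only in the WT libraries, so these p-values are a description. Both falls were also called in the fit with no filter. The call in Zab cells ended without Zab replicate 1 (adjusted p = 0.083), Zab replicate 2 (0.11) or WT replicate 1 (0.14). PDGFRA did not differ detectably at this depth between Zab+MYC and MYC cells (log2 0.14, 95% interval -0.881 to 1.15, limma adjusted p = 0.89).

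The PDGF ligands were measured in the same libraries. PDGFB, whose product binds both receptors, did not pass the filter and was chosen for mention after its values were seen. PDGFB had 3 and 2 tags in Zab+MYC, 0 and 0 in MYC, 1 and 3 in Zab, against 12 and 6 in WT. With MYC cells set at the same floor, PDGFB was 8.06-fold lower there than in WT cells. This ratio is not a lower limit either and has no test here. PDGFA, a ligand mainly of the alpha receptor, averaged 30.7 ± 0.719 CPM in Zab+MYC, 33.7 ± 3.39 in MYC, 48.2 ± 17.5 in Zab and 47.5 ± 4.22 in WT, and was called in none of the 5 tests. With library totals PDGFA was called lower in MYC cells than in WT cells (log2 -0.59, adjusted p = 0.028) and in Zab+MYC cells than in Zab cells (-0.61, adjusted p just under the threshold). The latter fall was also called with edgeR (log2 -0.69, edgeR adjusted p = 0.032), and its size was log2 -0.93 without Zab replicate 1.

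FGFR1, a receptor for fibroblast growth factors including FGF2 and active in bone and muscle precursors, was the most abundant of the receptors per kb in WT cells. The gene is on chromosome 8 from 38268661 to 38326153 on the minus strand. FGFR1 measured 106 and 100.6 CPM in Zab+MYC, 132 and 109 in MYC, 129.8 and 117 in Zab, against 182 and 190.2 in WT. Both WT libraries lay above all others, and MYC and Zab libraries overlapped. FGFR1 fell 1.54-fold in MYC cells against WT cells (log2 -0.63 ± 0.133, limma adjusted p = 4.3e-05) and 1.5-fold in Zab cells against WT cells (log2 -0.58 ± 0.133, limma adjusted p = 0.00048). Both falls were called under all 20 alternative settings. Zab+MYC cells gave log2 -0.21 against MYC cells (95% interval -0.477 to 0.0551, limma adjusted p = 0.28). This was a called fall on the deposited scale (log2 -0.54, adjusted p = 0.00087). Against Zab cells, Zab+MYC cells gave log2 -0.26 (limma adjusted p = 0.15). FGF2 itself averaged 27.0 ± 5.14 CPM in Zab+MYC, 28.0 ± 1.32 in MYC, 39.2 ± 6.81 in Zab and 27.0 ± 0.742 in WT and was called in none of the 5 tests.

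EGFR, the receptor for epidermal growth factor and its relatives, was not called between MYC and WT cells and was called higher where Zab was present, by calls that did not hold throughout. Its locus is chromosome 7 from 55086710 to 55279321 on the plus strand. EGFR measured 47.2 and 46.8 CPM in Zab+MYC, 35.5 and 21.4 in MYC, 56.7 and 34.3 in Zab, against 30.9 and 23.3 in WT. Neighbouring groups overlapped throughout, but both Zab+MYC libraries and both Zab libraries lay above both WT libraries. MYC and WT cells gave log2 0.04 with a 95% interval of -0.474 to 0.55 (limma adjusted p = 0.91). EGFR was called 1.60-fold higher in Zab cells than in WT cells (log2 0.68 ± 0.257, limma adjusted p = 0.044). It was called 1.65-fold higher in Zab+MYC cells than in MYC cells (0.73 ± 0.257, limma adjusted p = 0.034). The call in Zab cells held in 10 of 20 alternatives and ended without Zab replicate 1 (log2 0.33), WT replicate 2 (0.49) or either Zab+MYC library (0.68). That in Zab+MYC cells held in 12 of 20 and ended without MYC replicate 2 (log2 0.35) or either Zab+MYC library (0.69 each). With DESeq2 the adjusted p was 0.27 and 0.28.

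ERBB2, which has no ligand of its own and pairs with EGFR and other ERBB receptors, was lowest in MYC cells. The gene is on chromosome 17 from 37844337 to 37884915 on the plus strand. ERBB2 measured 9.245 and 4.96 CPM in Zab+MYC, 4.203 and 4.36 in MYC, 10.8 and 16.5 in Zab, against 24.0 and 12.2 in WT. The MYC libraries lay below all others, and Zab and WT libraries overlapped. ERBB2 fell 3.06-fold in MYC cells against WT cells (log2 -1.61 ± 0.412, limma adjusted p = 0.00058). Leaving out WT replicate 1 ended this call (log2 -1.16, adjusted p = 0.068). Zab cells gave log2 -0.32 against WT cells (95% interval -1.14 to 0.502, limma adjusted p = 0.63), and Zab+MYC cells gave log2 0.49 against MYC cells (limma adjusted p = 0.44). The kept ERBB2 transcript differed in length by up to 11.95% between libraries, the widest span of the 10 receptors.

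The EGFR ligands TGFA and EREG were lower in MYC cells and in Zab cells than in WT cells, while HBEGF was higher in MYC cells. TGFA, transforming growth factor alpha, measured 9.73 and 12.1 CPM in Zab+MYC, 5.60 and 9.91 in MYC, 14.3 and 9.79 in Zab, against 31.5 and 29.7 in WT. TGFA fell in MYC cells against WT cells by log2 -1.78 ± 0.363 (limma adjusted p = 2.2e-05) and in Zab cells by -1.23 ± 0.363 (limma adjusted p = 0.0074). The call in Zab cells ended without Zab replicate 2 (adjusted p = 0.1) or WT replicate 1 (0.076). EREG, epiregulin, averaged 13.3 ± 2.27 CPM in Zab+MYC, 15.9 ± 10.6 in MYC, 10.2 ± 1.20 in Zab and 38.8 ± 12.1 in WT. Its fall in Zab cells was log2 -1.71 ± 0.352 against WT cells (limma adjusted p = 9.5e-05), and its fall in MYC cells (log2 -1.29, limma adjusted p = 0.0012) ended without MYC replicate 1 (log2 -0.61) or WT replicate 1 (log2 -0.97) and with DESeq2 (adjusted p = 0.057). HBEGF averaged 16.5 ± 4.77 CPM in MYC cells against 6.86 ± 0.783 in WT cells (log2 1.04, limma adjusted p = 0.011), which ended without MYC replicate 2 (log2 0.80) or WT replicate 1 (log2 0.96) and with DESeq2 (adjusted p = 0.11). EGF itself had between 0 and 3 tags in each library.

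MET, the receptor for hepatocyte growth factor, was the receptor that was higher in both groups with overexpressed MYC. It lies on chromosome 7 from 116312250 to 116438431 on the plus strand. MET measured 116 and 99.9 CPM in Zab+MYC, 102 and 102 in MYC, 72.45 and 61.2 in Zab, against 68.1 and 64.6 in WT. All 4 libraries with MYC lay above all 4 without, and within each of these sets the groups overlapped. MET rose 1.53-fold in MYC cells against WT cells (log2 0.61 ± 0.163, limma adjusted p = 0.00097) and 1.60-fold in Zab+MYC cells against Zab cells (0.68 ± 0.163, limma adjusted p = 0.00084). The first call held in all 20 alternatives and the second in 19 of 20, with DESeq2 giving an adjusted p of 0.051. Zab cells gave log2 0.00 against WT cells (95% interval -0.32 to 0.33, limma adjusted p = 0.99), but on the deposited scale MET was called lower there (log2 -0.52, adjusted p = 0.0057). Zab+MYC cells gave log2 0.07 against MYC cells (95% interval -0.25 to 0.399, limma adjusted p = 0.80). The MYC effects with and without Zab differed by log2 0.07 (95% interval -0.39 to 0.529, limma adjusted p = 0.86). Its ligand HGF had 0 or 1 tag in each of the 8 libraries.

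**Figure D3:**
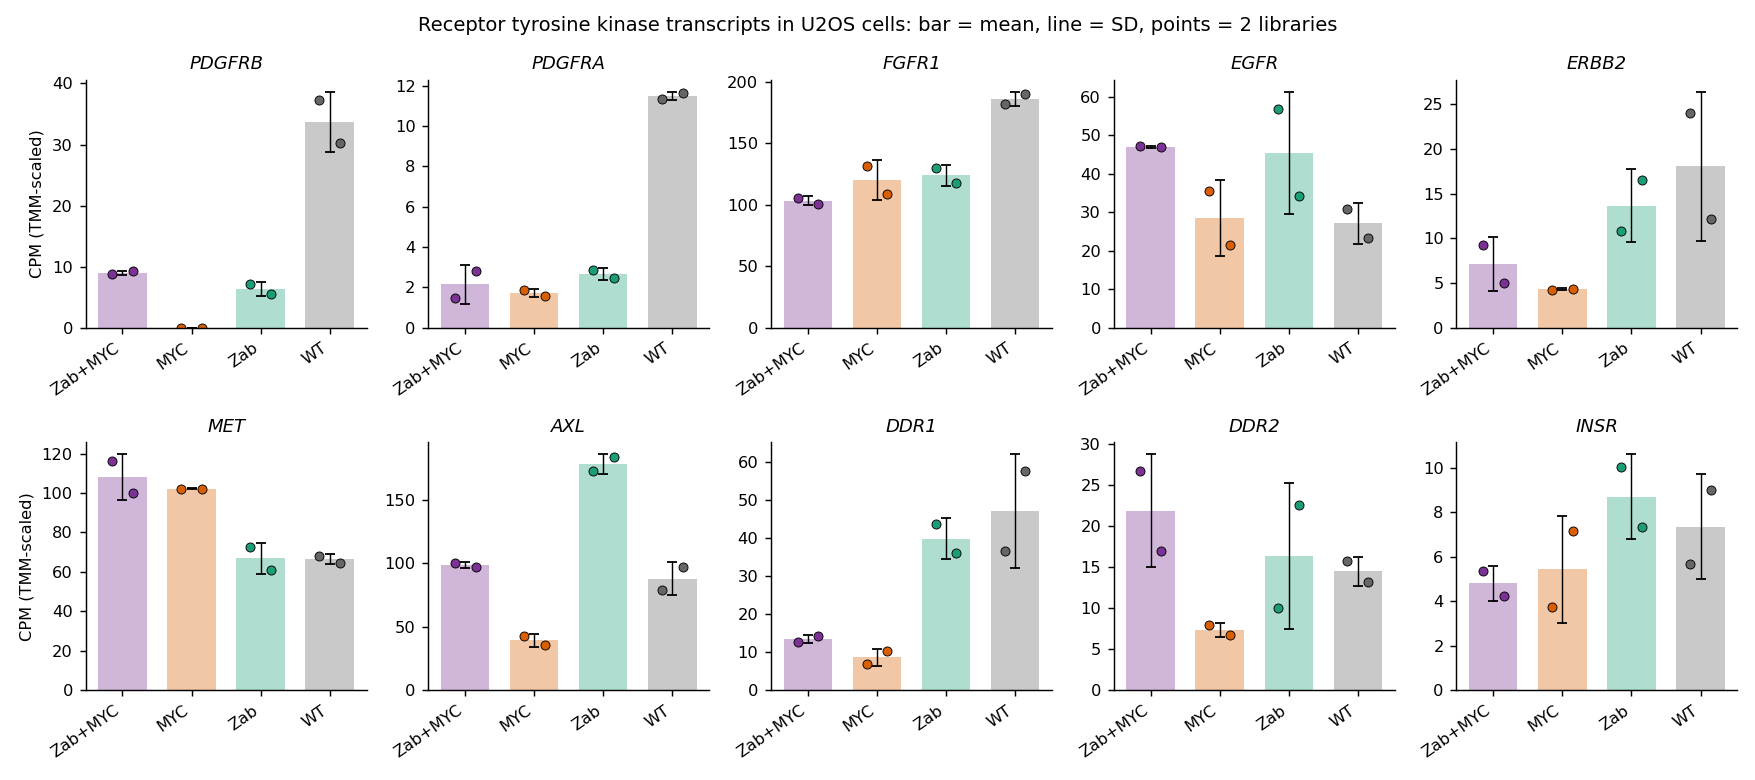
Level of each of the 10 receptors (y axis, CPM with TMM scaling, own scale in each panel) in the 4 genotypes (x axis). Bars are means, lines are SD, and points are the 2 libraries of a group. MET is at 99.9 to 116 CPM in Zab+MYC and at 64.6 to 68.1 CPM in WT, AXL is highest in Zab (173 and 184 CPM), and PDGFRB is at 0 in both MYC libraries.

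AXL, a receptor of the TAM family that binds the vitamin K-dependent protein GAS6, moved in opposite directions with MYC and with Zab. Its locus is chromosome 19 from 41725128 to 41767671 on the plus strand. AXL measured 100.2 and 97.1 CPM in Zab+MYC, 43.0 and 35.7 in MYC, 173 and 184 in Zab, against 78.9 and 96.9 in WT. No groups overlapped, in the order Zab, Zab+MYC, WT, MYC, although the nearest Zab+MYC and WT libraries were at 97.1 and 96.9 CPM. AXL fell 2.17-fold in MYC cells against WT cells (log2 -1.12 ± 0.16, limma adjusted p = 7.5e-09). It rose 2.01-fold in Zab cells against WT cells (log2 1.01 ± 0.16, limma adjusted p = 5.7e-07). With both factors, Zab+MYC cells exceeded MYC cells 2.45-fold (log2 1.29 ± 0.16, limma adjusted p = 1.1e-09). AXL in Zab+MYC cells was 1.79-fold below its level in Zab cells (log2 -0.84 ± 0.16, limma adjusted p = 2.6e-05). Each of these 4 calls held in all 20 alternatives, with log2 0.47 on the deposited scale as the lowest value for Zab against WT. The MYC effects with and without Zab differed by log2 0.28 (95% interval -0.171 to 0.731, limma adjusted p = 0.39).

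GAS6, the AXL ligand, was lower in MYC cells than in WT cells and was not called in Zab cells. GAS6 measured 41.4 and 72.3 CPM in Zab+MYC, 26.2 and 27.8 in MYC, 97.5 and 125 in Zab, against 119.9 and 109 in WT. It fell 4.02-fold in MYC cells against WT cells (log2 -2.01 ± 0.194, limma adjusted p = 1.1e-14) and gave log2 -0.05 in Zab cells against WT cells (limma adjusted p = 0.89), which was a called fall on the deposited scale (log2 -0.59, adjusted p = 0.0092). GAS6 was 1.96-fold higher in Zab+MYC cells than in MYC cells (log2 0.97 ± 0.194, limma adjusted p = 9e-05), and this call ended without Zab+MYC replicate 2 (log2 0.54, adjusted p = 0.11). Ligand and receptor transcripts were thus both lower in MYC cells than in WT cells, while AXL alone was called higher in Zab cells.

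DDR1 and DDR2 are the discoidin domain receptors, which are activated by collagen instead of a soluble growth factor. DDR1 lies on chromosome 6 from 30852315 to 30867933 on the plus strand, and DDR2 on chromosome 1 from 162600653 to 162757195 on the plus strand. DDR1 measured 12.65 and 14.2 CPM in Zab+MYC, 7.005 and 10.3 in MYC, 43.75 and 36.1 in Zab, against 36.6 and 57.7 in WT. All 4 libraries with MYC lay below all 4 without, and Zab and WT libraries overlapped. DDR1 fell 4.56-fold in MYC cells against WT cells (log2 -2.19 ± 0.305, limma adjusted p = 3.8e-09) and 2.71-fold in Zab+MYC cells against Zab cells (-1.44 ± 0.305, limma adjusted p = 0.00015), both in all 20 alternatives. Zab cells gave log2 -0.20 against WT cells (95% interval -0.809 to 0.406, limma adjusted p = 0.69), a called fall on the deposited scale (log2 -0.72, adjusted p = 0.042). The transcripts kept for DDR1 carry suffixes for repeated copies in the annotation, so its counts are uncertain to the extent that reads were shared between copies.

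DDR2, the family member selective for fibrillar collagens, was lowest in MYC cells. DDR2 measured 26.8 and 17.0 CPM in Zab+MYC, 7.94 and 6.74 in MYC, 10.04 and 22.6 in Zab, against 15.8 and 13.2 in WT. The MYC libraries lay below all others. Zab libraries overlapped those of Zab+MYC and of WT, while both Zab+MYC libraries lay above both WT libraries. DDR2 was 2.51-fold higher in Zab+MYC cells than in MYC cells (log2 1.33 ± 0.367, limma adjusted p = 0.0057). That call held in 16 of 19 alternatives and ended with no filter, without MYC replicate 2 (log2 1.21) or without Zab+MYC replicate 1 (log2 1.003, adjusted p = 0.15). In MYC cells DDR2 was 1.77-fold lower than in WT cells (log2 -0.82 ± 0.367, limma adjusted p = 0.049), a call near the threshold that held in 7 of 20 alternatives. It ended without any 1 library other than Zab replicate 1, with log2 values between -0.93 and -0.69. Zab+MYC cells gave log2 0.44 against Zab cells (95% interval -0.291 to 1.17, limma adjusted p = 0.40).

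Collagens, the ligands of both DDR receptors, were among the genes with the largest falls in the ligand list. COL1A1, a chain of type I collagen, averaged 225 ± 8.20 CPM in Zab+MYC, 116 ± 9.09 in MYC, 801 ± 36.1 in Zab and 1140.0 ± 65.5 in WT. COL1A1 fell 9.71-fold in MYC cells against WT cells (log2 -3.28 ± 0.0812, limma adjusted p = 1.4e-47) and 3.53-fold in Zab+MYC cells against Zab cells (limma adjusted p = 6.6e-31). COL3A1, the type III chain, averaged 3.61 ± 1.09 CPM in Zab+MYC, 4.38 ± 2.22 in MYC, 49.0 ± 8.76 in Zab and 104 ± 11.2 in WT. By tags COL3A1 was 23.0-fold lower in MYC cells than in WT cells (95% counting interval 12.8 to 51.3) and 12.9-fold lower in Zab+MYC cells than in Zab cells (6.19 to 39.7). DDR1 and the fibrillar collagens COL1A1, COL3A1 and COL5A1 were all called lower in both comparisons that add MYC. COL5A1 averaged 4.75 CPM in MYC and 7.81 in Zab+MYC. COL3A1 and COL5A1 thus lay below the filter's cutoff of 11.66 CPM in both groups with overexpressed MYC. They had to be high in Zab or WT cells to be tested, so their calls are a description.

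**Figure D4:**
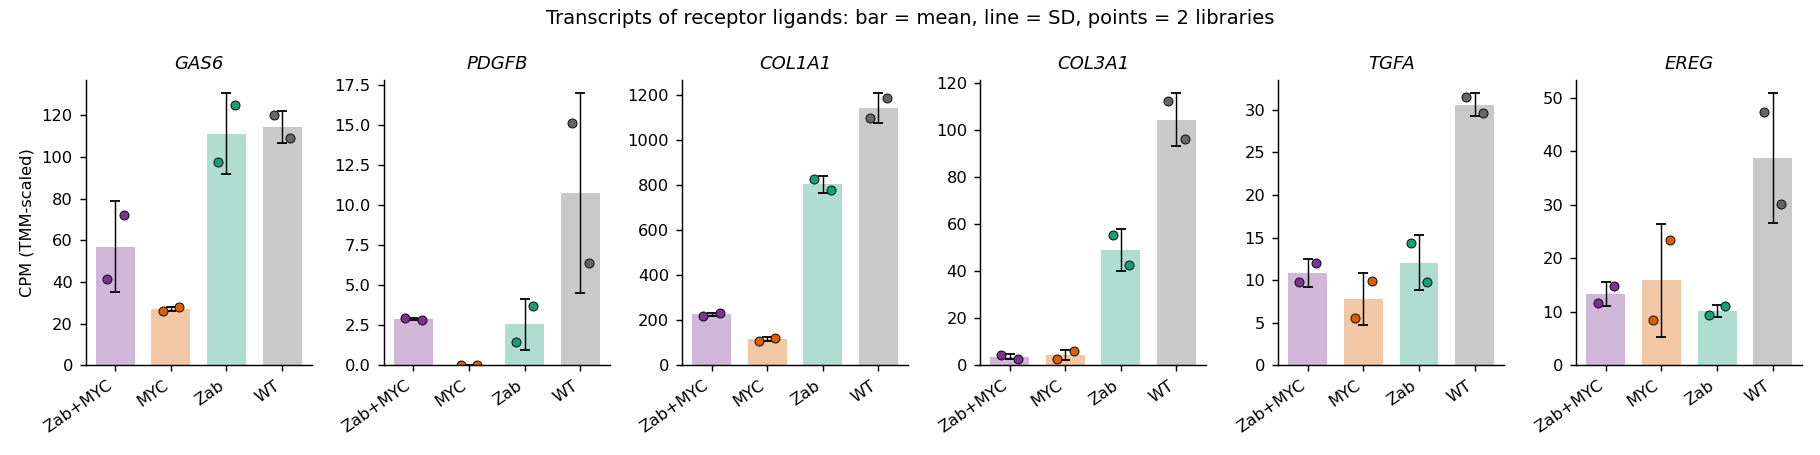
Level of 6 ligand genes (y axis, CPM with TMM scaling, own scale in each panel) in the 4 genotypes (x axis). Bars are means, lines are SD, and points are the 2 libraries of a group. GAS6 is at 26.2 and 27.8 CPM in MYC and at 119.9 and 109 CPM in WT, COL1A1 averages 116 CPM in MYC and 1140.0 CPM in WT, and PDGFB is at 0 in both MYC libraries.

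INSR, the insulin receptor, was too low for the test. It lies on chromosome 19 from 7112276 to 7294425 on the minus strand. INSR measured 5.35 and 4.25 CPM in Zab+MYC, 3.74 and 7.14 in MYC, 10.04 and 7.34 in Zab, against 5.68 and 9.01 in WT. Neighbouring groups overlapped throughout. The groups had 8.5, 13, 13 and 13 tags in that order. In a fit of all 16967 genes with no filter its adjusted p ran from 0.42 to 0.94 over the 5 tests. A difference was not detectable at this depth.

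Of 48 other receptor tyrosine kinases 13 were tested. In MYC cells against WT cells, 2 were called higher and 4 lower, against 27.8% and 30.4% of all genes, so these counts do not stand above the background. In Zab cells against WT cells the counts were 2 and 0 (13.1% and 11.3% of all genes), in Zab+MYC cells against MYC cells 2 and 1 (11.8% and 8.14%), and in Zab+MYC cells against Zab cells 2 and 5 (14.3% and 12.5%). The count of 0 lower in Zab against WT is limma's. It was 1 at an unadjusted p under 0.05, 0 with edgeR and 0 with DESeq2. EPHA8, an ephrin-A receptor, had 69.5 and 47 tags in MYC cells against 0 and 2 in WT cells, a ratio of 43.4 per scaled total with a 95% counting interval of 11.7 to 361. It had 39 tags over both Zab+MYC libraries against 2 over both Zab libraries, a ratio of 17.0 (4.41 to 146). EPHA8 reached the filter through libraries with MYC, so it had to be high there to be tested. EPHB2, an ephrin-B receptor, fell 4.14-fold in MYC cells against WT cells (log2 -2.05 ± 0.232, limma adjusted p = 5e-12) but was 2.33-fold higher in Zab+MYC cells than in MYC cells (log2 1.22 ± 0.232, limma adjusted p = 4e-05). The EPHB2 difference between MYC effects passed the test (log2 1.36 ± 0.328, limma adjusted p = 0.00081).

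Of 29 ligands 12 were tested. In MYC cells against WT cells 1 was called higher and 9 lower, against 27.8% and 30.4% of all genes, with a median log2 fold change of -1.41 over the ligands and -0.04 over all genes. In Zab cells against WT cells 0 were higher and 5 lower, against 13.1% and 11.3% of all genes (medians -0.23 and 0.00). In Zab+MYC cells against MYC cells 3 were higher (GAS6, COL1A1 and IGF2) and 0 lower, against 11.8% and 8.14% (medians 0.31 and 0.00). In Zab+MYC cells against Zab cells 0 were higher and 6 lower, against 14.3% and 12.5% (medians -0.56 and -0.01). These counts are limma's. Where they are 0, an unadjusted p under 0.05 gave 1 higher in Zab against WT, 0 lower in Zab+MYC against MYC and 0 higher in Zab+MYC against Zab, and edgeR and DESeq2 gave 0 in each. For the difference of the MYC effects limma called 6 ligands higher and 0 lower, against 14.6% and 13.3% of all genes (medians 0.92 and 0.02). There an unadjusted p under 0.05 gave 7 higher and 0 lower, edgeR 6 and 0, and DESeq2 1 and 0. These are a description, since ligands could pass the filter through the WT libraries. IGF2, an insulin-like growth factor that also binds the insulin receptor, fell in MYC cells against WT cells (log2 -1.36 ± 0.196, limma adjusted p = 9.4e-09). Its higher level in Zab+MYC cells than in MYC cells (log2 0.90, limma adjusted p = 0.00037) ended without Zab+MYC replicate 2 (log2 0.62, adjusted p = 0.082).

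The counts of downstream signalling genes are read against the shares of all genes called, given with the receptor counts above. Of 33 adaptors and proximal signalling genes 26 were tested, with 6 higher and 9 lower in MYC cells against WT cells (27.8% and 30.4% of all genes), 3 and 3 in Zab cells against WT cells, 1 and 0 in Zab+MYC cells against MYC cells, and 2 and 5 in Zab+MYC cells against Zab cells. For the 0 lower by limma in Zab+MYC against MYC, the count was 2 at an unadjusted p under 0.05, 2 with edgeR and 0 with DESeq2. NCK2, an adaptor to the actin machinery, fell in MYC cells against WT cells (log2 -1.77 ± 0.214, limma adjusted p = 5.2e-11), and PIK3R2, a regulatory subunit of PI3 kinase, fell 2.89-fold (-1.53 ± 0.175, limma adjusted p = 7.1e-12). STAT3, a transcription factor activated by several of these receptors, was the 1 gene of the list called in Zab+MYC cells against MYC cells, at 137 ± 9.79 CPM against 69.2 ± 2.53 CPM (log2 0.96 ± 0.142, limma adjusted p = 1.6e-07). Of 21 brakes on receptors 19 were tested, with 5 higher and 5 lower in MYC cells against WT cells, near the same shares of all genes, 2 and 2 in Zab cells against WT cells, 0 and 1 in Zab+MYC cells against MYC cells, and 3 and 1 in Zab+MYC cells against Zab cells. For the 0 higher by limma in Zab+MYC against MYC, it was 1 at an unadjusted p under 0.05, 0 with edgeR and 0 with DESeq2. ERRFI1, a feedback inhibitor of EGFR, averaged 26.9 ± 5.98 CPM in Zab+MYC, 37.2 ± 0.952 in MYC, 20.3 ± 2.39 in Zab and 126 ± 11.4 in WT. ERRFI1 fell 3.25-fold in MYC cells (log2 -1.70 ± 0.231, limma adjusted p = 1.8e-09) and 5.72-fold in Zab cells (-2.52 ± 0.231, limma adjusted p = 9.7e-15) against WT cells.

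The genes whose levels ran most like the receptors were found by Pearson's r of log2(CPM + 2) over the 8 libraries among 7219 genes with a mean of at least 20 CPM. For the 3 receptors with the widest range of group means in CPM, AXL was nearest to FST (r = 0.989), TRIM56 (0.986) and LYPD1 (0.984), FGFR1 to SLC25A10 (0.976), NEK2 (0.974) and MORF4L2 (0.974), and MET to MFSD11 (0.985), ZDHHC18 (0.982) and GGA2 (0.98). On the log2 scale PDGFRB and DDR1 ranged wider than FGFR1 and MET. PDGFRB was nearest to TUBB (0.992), CTDSPL (0.99) and ANXA11 (0.987), and DDR1 to NCOA1 (0.99), PGAP6 (0.988) and PRRT3 (0.987). Between receptors r ran from -0.907 for MET and DDR1 to 0.912 for PDGFRA and FGFR1. These values describe 8 points that fall into 4 genotypes and share libraries and depth.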

How the data were processed

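RNA was extracted with Trizol, per the labels' protocols. The submitters' processing notes name Trim Galore 0.6.6, STAR, HOMER 4.11.1 and, without roles, the builds hg19 and dm6. The authors deposited 1 table per library with an exon signal per gene, counted by HOMER over hg19 RefSeq coding genes with 1 transcript kept per symbol, per the file headers. That transcript differed between libraries for 50.6% of genes and for all 10 receptors. Strand use in counting is not stated, which leaves overlapping or antisense genes uncertain. In every library the signal was whole multiples of 1 step within 0.1 step. A tag was taken as 2 steps, an assumption, and tags were recovered by division.

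Tags of 9673 genes kept by filterByExpr were scaled by TMM, taken to log2(CPM + 2) and fitted in limma 3.58.1 with a trend, over all 8 libraries, with a mean for each group, which leaves 4 residual degrees of freedom. Tests were two-sided with Benjamini-Hochberg adjustment over all genes. edgeR 4.0.16 called 5919, 2319, 2348, 2514 and 2728 genes on the recovered tags, rounded, in the order of comparisons of the report, against 5633, 2363, 1933, 2592 and 2695 with limma. The main test was limma, since the tables hold a signal and no raw counts. The scripts were tested on simulated data. Counting intervals are exact conditional ones at 95%. With no molecular identifiers, reads are not independent molecules, and intervals and floors hold counting error alone. Alternatives were RLE scaling, library totals, the deposited scale, other filters, pseudocounts of 1 and 5 CPM, edgeR, DESeq2 1.42.0, the libraries of a comparison alone, a replicate block, each library left out, genes with the same transcript throughout and, added after seeing the data, tags per length of the kept transcript. Named were all receptors, up to 3 called genes per list and comparison with the largest change and a mean of at least 5 CPM, and ligands that passed the filter. Receptors and lists were chosen with earlier results of these data known. Software also included R 4.3.3, Python 3.11.15 with pandas 2.3.3, numpy 2.4.6, scipy 1.17.1, and matplotlib 3.10.9 for plots.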

Additional observations from a re-analysis of the deposited data

Results flagged for a closer look

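The MYC effect on PDGFRB differed with and without Zab by log2 4.56 ± 0.615 in the test of that difference (limma adjusted p = 7.7e-09). Each of the 18 alternatives that gave a value called it, the fit with no filter included, and DESeq2 gave no adjusted p. PDGFRB passed the main filter only through the WT libraries, whose level raises this difference. The p-value is therefore given as a description. Zab+MYC libraries had 8.76 and 9.21 CPM and Zab libraries 7.17 and 5.51, whereas MYC libraries had 0 and 0 and WT libraries 37.2 and 30.2. Because both MYC libraries are at 0, the size depends on the pseudocount, with log2 5.56 at 1 CPM, 3.25 at 5 CPM and 8.47 in edgeR. MYC transcripts averaged 706 CPM in Zab+MYC and 1263 CPM in MYC, so the presence of Zab and a lower MYC level cannot be told apart here.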

How the results depend on the processing

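Receptor calls moved by over 1.5 times in these settings. In Zab against WT the 5 calls became 2 with DESeq2, which gave no adjusted p for 4 of the 9 (PDGFRA, PDGFRB, ERBB2 and DDR2), and 3 with the libraries of the comparison alone. In Zab+MYC against MYC the 4 became 2 with no filter and 1 with DESeq2, which gave none for those 4 and DDR1. For the difference of the MYC effects the 1 call became 2 with library totals, 4 on the deposited scale, 2 with a pseudocount of 5 CPM, 2 with edgeR and 0 with DESeq2, which gave none for PDGFRA, PDGFRB and ERBB2. With each library left out, receptor calls ran from 6 to 8 in MYC against WT, 3 to 4 in Zab against WT, 2 to 4 in Zab+MYC against MYC, 3 to 3 in Zab+MYC against Zab and 1 to 2 for the difference. Calls over all genes ran from 4796 to 5980, 1665 to 2343, 1136 to 2213, 1712 to 2648 and 2129 to 2500 in that order. A left-out library leaves 1 in its group, assumed to vary like the others.

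With the 4604 genes that kept the same transcript, all genes called were 2831, 1360, 1044, 1447 and 1496, since fewer genes were tested, and no receptor remained. The deposited scale gave 5017 in Zab against WT and 3520 in Zab+MYC against MYC. DESeq2 gave 889, 702, 926 and 1118 in all but MYC against WT. The cause was not tested. Sign changes on the deposited scale in Zab against WT were followed only for the receptors and the list genes that met the rule for naming. Among those called on either of the 2 scales, they were MET (log2 -0.52), IGF1R (-0.13), EPHA2 (-0.0298), SHC1 (-0.19), PTPRF (-0.0379) and PTPN2 (-0.51). Over all genes the median shifts to -0.51 there, and 251 were called higher, against 1271 with TMM scaling.

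With a replicate block, calls were 5650, 2434, 2010, 2657 and 2756 over all genes and 8, 5, 4, 3 and 1 over the receptors. Deviations of same-numbered libraries had correlations between -0.0226 and 0.0143. The labels do not state what a shared number stands for, and whether such libraries share a batch was not tested. Of 404 alternative values of receptor results that were called, 365 stayed called in the same direction, 39 were no longer called and 0 changed sign. Of 444 that were not called, 434 stayed so, 9 became called in the same direction and 30 changed sign, 1 of them (MET) with a call. Depth limits INSR, PDGFRA and PDGFRB most, at or near the floor of 3 tags over a group for PDGFRA outside WT and for PDGFRB in MYC.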
